A study of Mus musculus with 3 samples.

Results

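The 7 mouse genes Ly6a, Ly6c1, Ly6c2, Ly6d, Ly6e, Ly6g and Ly6k encode members of the Ly6 surface antigen family, and were followed across 3 libraries of macrophages sorted from the spleens of leukemic mice. They were picked by gene symbol out of 17615 genes listed in any library, and they were chosen with their levels in these same libraries known. Their values are therefore a description of these libraries. Mice of the C57BL/6J strain, aged 6 to 8 weeks, had received 800000 GFP+BFP+ acute myeloid leukemia cells each without irradiation and survived 30 to 40 days. The leukemia cells had neither factor at a high level in the control group, a high level of mM-CSF in the second group and a high level of sM-CSF in the third, prefixes that the labels leave unexplained. M-CSF is the growth factor that sustains macrophages through the receptor CD115. Cells that were GR1-negative, F4/80-positive and intermediate for CD115 were taken on day 18, 1 library was made per group, and the labels do not say how many mice it represents. No difference reported here has a replicate check, and each describes the libraries compared. The control library enters both comparisons with control, so these share its errors.

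Ly6 proteins are small, disulfide-bonded domains held in the outer leaflet of the plasma membrane by a glycosylphosphatidylinositol (GPI) anchor, and many of their genes lie side by side on mouse chromosome 15. They are widely used as surface markers to separate blood cell types: Ly6G marks neutrophils, Ly6C separates classical from non-classical monocytes, and Ly6A, also called Sca-1, marks stem and progenitor cells and activated lymphocytes. The GR1 antigen used in the sort is Ly6G, and commonly used GR1 antibodies also bind Ly6C to a lesser degree; the labels name no antibody clone.

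The GR1 genes are close copies of each other, which bears on how reads can be assigned to them. In the GENCODE annotation of GRCm38, the coding sequences of Ly6c1 and Ly6c2 were 97.7% identical, with 9 differing alignment columns over 393 bases each, and their transcripts shared an exact stretch of 188 bases. Ly6g was 79.6% identical to Ly6c1 and 78.1% to Ly6c2, and its longest exact stretch with each was 42 bases. The first 120 coding bases are printed here so that the copies can be compared base by base, with capitals at the 22 positions where the 3 genes are not all the same. The Ly6c1 bases come from chr15:75047420-75048511 on the minus strand, those of Ly6c2 from chr15:75110578-75111667 on the minus strand, and those of Ly6g from chr15:75155645-75156743 on the plus strand, and each stretch is exonic with the introns left out.
Ly6c1: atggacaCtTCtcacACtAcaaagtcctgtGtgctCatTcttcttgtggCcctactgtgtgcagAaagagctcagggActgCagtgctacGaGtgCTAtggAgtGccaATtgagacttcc
Ly6c2: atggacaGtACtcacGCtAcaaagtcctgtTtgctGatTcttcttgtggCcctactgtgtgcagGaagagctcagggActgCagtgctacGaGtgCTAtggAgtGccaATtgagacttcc
Ly6g: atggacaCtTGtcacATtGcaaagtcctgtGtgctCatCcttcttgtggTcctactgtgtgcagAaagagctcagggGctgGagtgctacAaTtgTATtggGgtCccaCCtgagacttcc
Within this window Ly6c1 and Ly6c2 differed at 6 bases, Ly6c1 and Ly6g at 16, and Ly6c2 and Ly6g at 22. Ly6a was 81.8% identical to Ly6c1, 81.6% to Ly6c2 and 83.1% to Ly6g over the coding sequence, whereas Ly6e, Ly6d and Ly6k shared 46.5% to 53.4% with every other member. The deposited expected counts, which are the authors' estimates of the reads from each gene, were not whole numbers for Ly6g, Ly6c1, Ly6c2 and Ly6a in any library and were whole within 0.005 reads for Ly6e, Ly6d and Ly6k in all 3. The split of signal between Ly6c1 and Ly6c2 is therefore uncertain, and their sum is given in each comparison.

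The upstream sequences of Ly6c1 and Ly6c2 differ more than their coding parts. RefSeq (GRCm38.p6) promoter entries matched 3 of the 7 members, Ly6c1, Ly6c2 and Ly6g. The 150 bases ahead of the most upstream listed start are shown because these genes differed widely in level within each library; capitals mark the TATA box letters TATAAA and the PU.1 core letters GAGGAAGT, PU.1 being a transcription factor of myeloid cells. The windows are chr15:75048838-75048987 (minus strand), chr15:75111972-75112121 (minus strand) and chr15:75155111-75155260 (plus strand).
Ly6c1: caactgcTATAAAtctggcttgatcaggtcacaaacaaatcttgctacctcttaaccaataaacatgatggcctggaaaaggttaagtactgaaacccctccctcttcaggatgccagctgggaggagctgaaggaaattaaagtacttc
Ly6c2: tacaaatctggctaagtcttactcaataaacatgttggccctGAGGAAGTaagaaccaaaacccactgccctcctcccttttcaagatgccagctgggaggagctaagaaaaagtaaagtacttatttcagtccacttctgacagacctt
Ly6g: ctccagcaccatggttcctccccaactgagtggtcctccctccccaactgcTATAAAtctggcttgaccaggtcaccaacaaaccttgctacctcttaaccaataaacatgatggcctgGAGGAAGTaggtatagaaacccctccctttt
On either strand of the whole 300-base window around that start, Ly6c2 held 2 PU.1 cores and no TATAAA, Ly6g held 1 of each, and Ly6c1 held 1 TATAAA and no PU.1 core. The window at the other listed start of Ly6c1 held 1 PU.1 core. Among all 32851 RefSeq windows of that length, 3.20% held GAGGAAGT and 13.6% held TATAAA. The interferon-related letters TTCNNNGAA and GAAANNGAA were in none of the windows of these 3 genes, against 8.30% and 8.56% of all windows. These are matches of letters, and no binding was measured. Aligned locally, the upstream windows were 74.3% identical between Ly6c1 and Ly6c2 (288 columns), 76.9% between Ly6c1 and Ly6g (281 columns) and 71.9% between Ly6c2 and Ly6g (249 columns).

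Summed over genes, expected counts came to 9.09e+06 for the control, 8.57e+06 for mM-CSF and 8.94e+06 for sM-CSF. The macrophage label was set beside 12 sort and identity genes, all of which were detected. They summed to 1127, 1130.5 and 822 FPKM (fragments scaled to gene length and to the library's mapped fragments) in that order. Csf1r, which encodes CD115, was at 268, 222 and 149 FPKM, Adgre1, which encodes F4/80, at 101, 67.5 and 65.5 FPKM, and Cd68 at 245, 284 and 214 FPKM. Differences between libraries were taken on the log2(FPKM + 1) scale, which understates the change of low genes, and a gene counted as higher or lower when it differed by at least 1 on that scale and reached 5 FPKM in the higher library. By this rule 1 of the 12 sort and identity genes was higher and 2 were lower in mM-CSF against control, Itgam among the lower. In sM-CSF against control 1 was lower, and 7 of the 12 were highest in the control. The 11 B cell genes described below summed to 1511, 2884 and 2773 FPKM, more than this list in every library. Differences also depended on gene length: the median difference of mM-CSF from control was 0.80 in the shortest of 5 equal groups of genes and -0.88 in the longest, and that of sM-CSF from control was 0.24 and -0.21. The members are short, from 694 to 1927 bases, so each of their differences is also given with the running median over 20 length bins subtracted, as the length-adjusted difference.

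Ly6g, the neutrophil antigen that gives GR1 its name, was close to the detection limit. Ly6g (NCBI gene 546644) stood at 0.25 FPKM (control), 1.45 (mM-CSF) and 0.36 (sM-CSF), which rest on 2.08, 11.26 and 2.90 expected counts. The ratio of its share of counts in mM-CSF to that in control was 5.83 with a 95% interval of 1.27 to 54.1, and 1.52 (0.175 to 18.2) in sM-CSF against control. On the log2 scale it differed from the control by 0.97 (length-adjusted 0.10) in mM-CSF and by 0.12 (length-adjusted -0.11) in sM-CSF. These intervals are exact conditional ones and, like all intervals here, cover counting error only. The mM-CSF library was the highest of the 3, and no fold of useful precision can be drawn at this depth. By the ranking of all listed genes Ly6g stood at place 14110 of 16470 in the control, 11387 of 16194 in mM-CSF and 13700 of 16401 in sM-CSF.

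The Ly6C genes, by contrast, were well expressed at the RNA level. The GR1-negative gate was set on surface protein. With no antibody clone named, whether it also covered Ly6C is unknown. Which sorted cells held this RNA was not tested. Ly6c2 (NCBI gene 100041546), the form typical of monocytes, stood at 70.9 FPKM (control), 271.9 (mM-CSF) and 107 (sM-CSF), or 549.6, 1999.6 and 820.3 expected counts. It ranked at place 285 of all listed genes in the mM-CSF library, against 1065 in the control and 629 in sM-CSF. Ly6c1 (NCBI gene 17067), a near copy also known from endothelial cells, was at 4.49, 17.6 and 14.2 FPKM, or 32.4, 124 and 100.3 expected counts. Ly6c2 was thus clearly highest in the mM-CSF library, while Ly6c1 was low in the control and at neighbouring levels in the other libraries. Ly6c2 made up 94.0% of the summed Ly6C signal in the control, 93.9% in mM-CSF and 88.3% in sM-CSF.

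**Figure D1:**
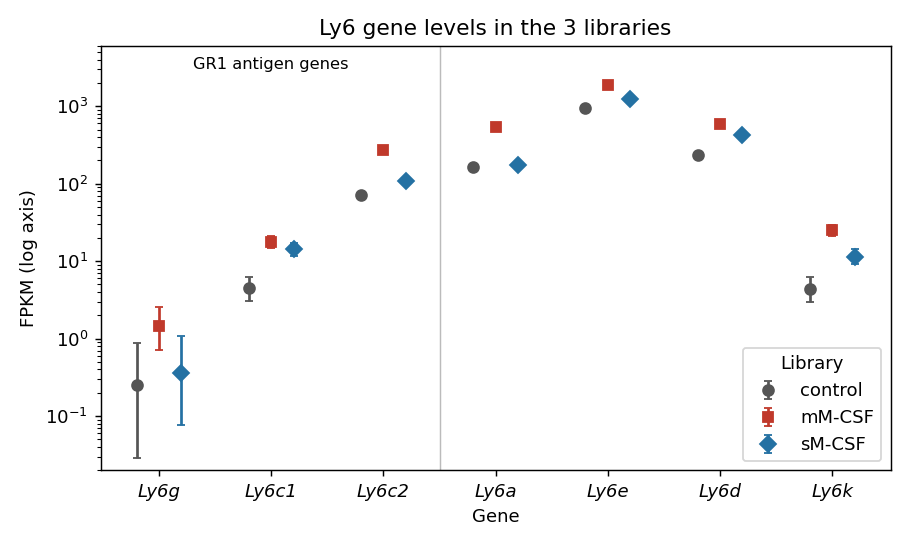
FPKM (log axis) of the 7 Ly6 genes in each library (control, mM-CSF, sM-CSF), 1 point per library, with bars for the exact Poisson 95% interval of the count. Every member is highest in mM-CSF, Ly6e spans 957 to 1866 FPKM, and the bars of Ly6g overlap.

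Ly6a (NCBI gene 110454), the Sca-1 antigen, stood at 162 FPKM (control), 532 (mM-CSF) and 175 (sM-CSF), or 1383, 4306 and 1467 expected counts. The mM-CSF library stood apart and the other libraries were nearly level. Ly6e (NCBI gene 17069), an interferon-inducible antigen that also serves as the receptor of a placental syncytin, was at 957, 1866 and 1253 FPKM, from 16863, 30609 and 21618 expected counts. It was the most abundant member in every library and ranked at place 66, 65 and 60 among all genes. It held 66.7% of the summed FPKM of the 7 members in the control, 56.6% in mM-CSF and 63.0% in sM-CSF.

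Ly6d (NCBI gene 17068), an antigen that appears as lymphoid progenitors commit to the B lineage, stood at 236 FPKM (control), 584 (mM-CSF) and 428 (sM-CSF), or 1435, 3367 and 2563 expected counts. Both M-CSF libraries were above the control, and Ly6d ranked at place 145 in each of them against 225 in the control. Ly6k (NCBI gene 76486), best known from germ cells, where it is needed for sperm function, was at 4.41, 24.9 and 11.5 FPKM, or 30, 161 and 77 expected counts. Its level was lowest in the control and highest in mM-CSF, and it stood near the low end of the family. By FPKM the order of the members was Ly6e, then Ly6d, Ly6a, Ly6c2, and last Ly6g in every library; Ly6c1 and Ly6k exchanged places, and the intervals of their levels overlapped in the control and sM-CSF libraries. All 7 members had the order mM-CSF above sM-CSF above control, an order shown by 29.7% of 9915 genes that reached the minimum in any library and by 59.8% of the 2786 genes among them with lengths in the members' range. That length range was set after the data were seen. Ly6g did not reach the minimum, and its order rests on 11.26, 2.90 and 2.08 expected counts. With the length adjustment the order did not hold for Ly6g (-0.11) and Ly6a (-0.13) in sM-CSF against control. Nor did it hold for Ly6c1 (-0.40) and Ly6d (-0.26) in mM-CSF against sM-CSF.

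The comparison of mM-CSF with control asks how macrophages differ when the leukemia carries a high level of mM-CSF. Of the 6 members at the 5 FPKM minimum, 5 were higher in mM-CSF by the size rule and none was lower. The background was high: 8.97% of 9789 genes were higher and 15.1% lower, and 19% of the 2760 genes in the members' length range were higher. Ly6k had the largest difference, 2.26 on the log2 scale (length-adjusted 1.31), with a ratio of count shares of 5.69 (3.84 to 8.71). Ly6c2 differed by 1.92 (length-adjusted 1.02), a ratio of 3.86 (3.51 to 4.25), and Ly6c1 by 1.76 (length-adjusted 0.83), a ratio of 4.11 (2.77 to 6.27). Summed, the Ly6C genes went from 75.4 to 289 FPKM, a ratio of 3.87 (3.53 to 4.25). The sum does not depend on how reads were split between the copies, and it gave nearly the same ratio as Ly6c2 alone.

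Ly6a differed by 1.71 (length-adjusted 0.86), a ratio of 3.30 (3.11 to 3.51), and Ly6d by 1.30 (length-adjusted 0.32), a ratio of 2.49 (2.34 to 2.65). Ly6d was the member just inside the size rule, and Ly6e lay just outside it at 0.96 (length-adjusted 0.70), a ratio of 1.92 (1.89 to 1.96). Of the 6 members, Ly6d, the shortest, lost the largest part of its difference with the length adjustment, and only Ly6k and Ly6c2 were then at 1 or more. The median over the 6 was 1.73, against -0.05 over all genes and 0.59 over genes of the members' length, and 0.84 after the length adjustment. On a TPM scale, where FPKM are rescaled to the same sum in every library, the median of all genes moved by -0.49; by that scale 281 genes were higher and 3406 lower in place of 878 and 1480, and 4 members were higher, Ly6d missing the rule at 0.84.

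**Figure D2:**
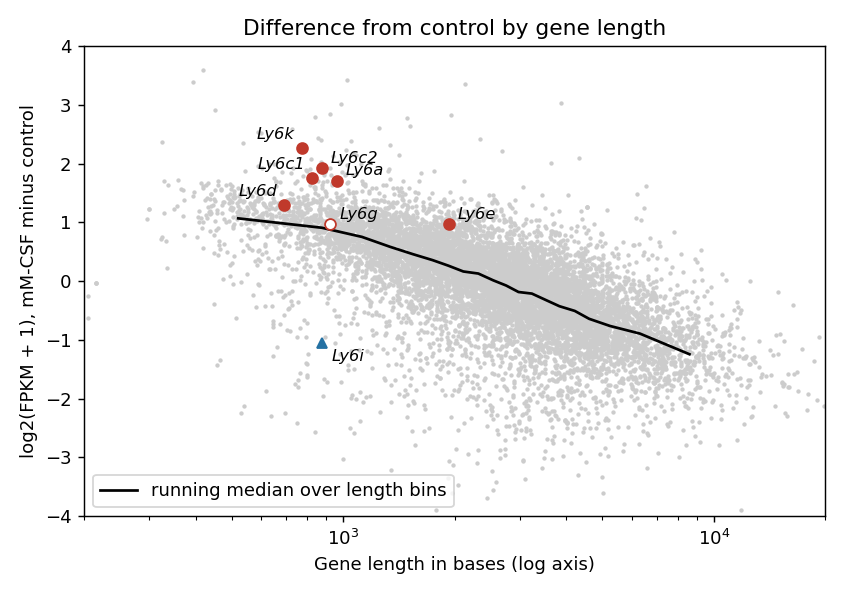
Difference of log2(FPKM + 1), mM-CSF minus control, against gene length in bases (log axis). Grey points are genes that reached 5 FPKM in any library, of which 155 lie outside the axes. The black line is the running median over length bins, red points are the Ly6 members (Ly6g open, under the expression minimum) and the blue triangle is Ly6i. Ly6k, Ly6c2, Ly6a and Ly6c1 lie above the line, Ly6g lies close to it, and Ly6i lies below it at -1.06.

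The comparison of sM-CSF with control puts the same question for sM-CSF. Of the 6 members at the minimum, 2 were higher in sM-CSF, Ly6c1 and Ly6k, and none was lower, against 0.785% of 9683 genes higher, 1.63% lower and 0.747% higher among 2679 genes in the members' length range. Ly6c1 differed by 1.47 (length-adjusted 1.22), a ratio of 3.18 (2.11 to 4.89), and Ly6k by 1.21 (length-adjusted 0.94), a ratio of 2.61 (1.69 to 4.12). Both are low genes, with 32.4 and 30 counts in the control. Summed with Ly6c2, the Ly6C signal went from 75.4 to 122 FPKM, a difference of 0.68 that did not reach the size rule, with a ratio of 1.61 (1.45 to 1.79).

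Ly6d came next at 0.85 (length-adjusted 0.57), a ratio of 1.81 (1.70 to 1.94), followed by Ly6c2 at 0.59 (length-adjusted 0.36), a ratio of 1.51 (1.36 to 1.69). Ly6e differed by 0.39 (length-adjusted 0.29), a ratio of 1.30 (1.28 to 1.33). Ly6a differed least among the 6, by 0.10, with a ratio of 1.08 (1.00 to 1.16), and turned to -0.04 on the TPM scale and -0.13 with the length adjustment. The median over the 6 members was 0.72 (length-adjusted 0.46), against 0.02 over all genes and 0.17 over genes of the members' length. On the TPM scale the all-gene median shifted by -0.14, with 98 genes higher and 364 lower in place of 76 and 158; the count of 2 members higher was the same on it.

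**Figure D3:**
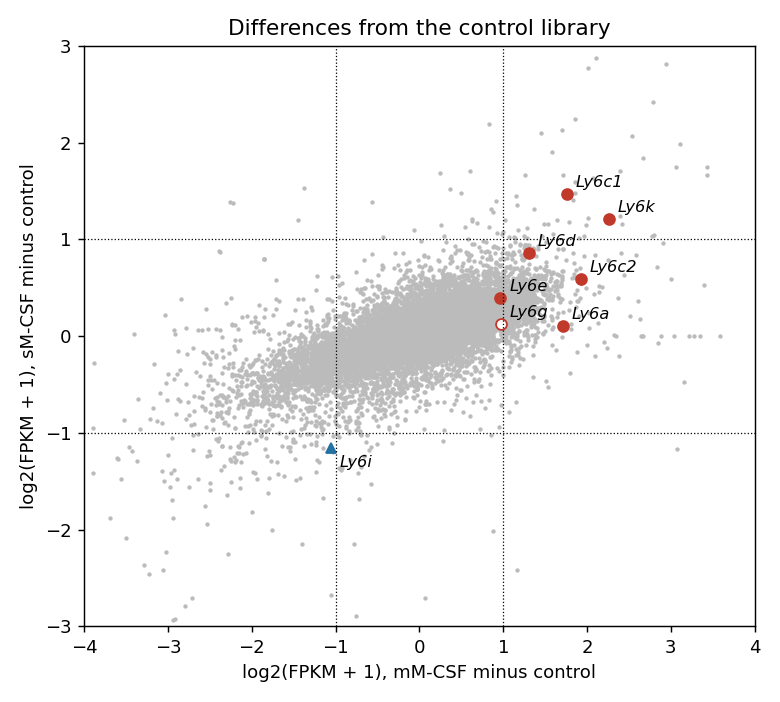
Difference of log2(FPKM + 1) from control in sM-CSF (vertical) against mM-CSF (horizontal), with dotted lines at 1 and -1. Grey points are genes that reached 5 FPKM in any library, of which 28 lie outside the axes. Red points are the Ly6 members (Ly6g open, under the minimum) and the blue triangle is Ly6i. Both axes subtract the same control library; Ly6a lies at 1.71 and 0.10, Ly6c1 at 1.76 and 1.47, and Ly6i is below -1 on both.

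Set directly against each other, the mM-CSF and sM-CSF libraries differed for Ly6a, Ly6c2 and Ly6k, 3 of the 6 members at the minimum, all higher in mM-CSF. The background was 3.79% of 9574 genes higher and 8.73% lower, with 7.53% of 2749 genes in the members' length range higher. Ly6a had the largest difference, 1.60 (length-adjusted 0.97), a ratio of 3.06 (2.89 to 3.25), then Ly6c2 with 1.33 (length-adjusted 0.65), a ratio of 2.55 (2.35 to 2.76), and Ly6k with 1.05 (length-adjusted 0.36), a ratio of 2.18 (1.65 to 2.90). None of the 3 reached 1 after the length adjustment, Ly6a being nearest.

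Ly6e differed by 0.57 (length-adjusted 0.40), a ratio of 1.48 (1.45 to 1.5), and Ly6d by 0.45, a ratio of 1.37 (1.30 to 1.44) that turned to a length-adjusted -0.26. Ly6c1 differed by 0.29, with a ratio of 1.29 whose interval of 0.986 to 1.70 includes 1, and turned to -0.01 on the TPM scale and -0.40 with the length adjustment. For Ly6g, at 11.26 and 2.90 counts, the difference was 0.85 (length-adjusted 0.19) and the ratio 3.83 (1.01 to 21.4). Summed, the Ly6C genes were at 289 FPKM in mM-CSF and 122 in sM-CSF, a difference of 1.24 and a ratio of 2.41 (2.23 to 2.60). Whether the copies Ly6c1 and Ly6c2 differ in this comparison depends on the uncertain split of reads between them. On the TPM scale the all-gene median shifted by -0.34, with 182 genes higher and 2174 lower in place of 363 and 836, and under upper-quartile scaling by 0.11, with 541 higher and 653 lower.

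The members lie in a run of 29 protein-coding genes on chromosome 15, from Psca to Gpihbp1 in the RefSeq order, of which 11 reached 1 FPKM in any library, 8 were listed only below it and 10 were listed in no library. Ly6i (NCBI gene 57248), the neighbour of Ly6a and 86.3% identical to it over the coding sequence, went the other way from the members. It stood at 8.42 FPKM (control), 3.52 (mM-CSF) and 3.21 (sM-CSF), the control being highest. Its share of counts was 2.36-fold lower in mM-CSF than in control (1.48 to 3.87) and 2.56-fold lower in sM-CSF (1.59 to 4.24), with log2 differences of -1.06 (length-adjusted -1.97) and -1.16. Its expected counts were not whole in any library, and it shared an exact transcript stretch of 80 bases with Ly6a. Between Ly6d and Ly6k on one side and Ly6e on the other, Cyp11b1 and Cyp11b2, steroid synthesis genes of the adrenal gland, were listed in no library.

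The 3 other genes of the run that reached 1 FPKM did not pass the size rule against control or were below its minimum. Ly6m was at 1.71, 3.75 and 2.28 FPKM in control, mM-CSF and sM-CSF. Lynx1, a modulator of acetylcholine receptors, was at 8.82, 8.07 and 14.7 FPKM. Them6, which is no Ly6 gene, was at 12.0, 23.4 and 15.7 FPKM. A wider list of 44 other genes of the LY6 and uPAR superfamily had 25 genes listed in any library and 9 at 1 FPKM or more. At the minimum, 0 of 3 were higher and 1 of 3, Ly6i, was lower in each comparison with control, and 0 of 2 passed in either direction between mM-CSF and sM-CSF. Plaur, the urokinase receptor and the most abundant of them, was at 28.2, 21.2 and 20.4 FPKM.

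The low remainder was made up of Ly6g6c at 3.59, 0.62 and 1.96 FPKM, Cd59a, a complement inhibitor, at 3.90, 4.52 and 2.23, and Ly6g5b at 1.70, 2.68 and 2.58. Cd177, a neutrophil antigen, was at 0.72, 2.2 and 0.90 FPKM, and Lypd6b at 0.43, 0.91 and 1.37. These low values gave no call by the size rule, and Cd177 was highest in the same library as Ly6g.

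Ly6 antigens are shared by many blood cells, so marker lists of the cell types that could carry them were measured beside them. In sorted bulk RNA, a change in the number of cells of a type cannot be told apart from a change in RNA per cell, and the part of other cells in the Ly6 values was not tested. Calls in these lists are not length-adjusted. Over all genes, 8.97% were higher and 15.1% lower in mM-CSF against control, and 0.785% and 1.63% in sM-CSF. With the length adjustment the mM-CSF median went from 2.35 to 1.29 for neutrophil genes and from 1.65 to 0.96 for plasma cell genes. It went from 0.33 to -0.05 for NK cell, 0.38 to 0.32 for B cell and 0.70 to 0.68 for T cell genes. Neutrophil genes, 13 on the list and all listed in every library, summed to 88.6, 301 and 87.9 FPKM in control, mM-CSF and sM-CSF. In mM-CSF against control, 5 of 7 at the minimum were higher, among them S100a8 at 10.7 and 122 FPKM, and 1, Csf3r, was lower at 26.7 and 11.8; in sM-CSF none of 6 passed. Ly6g was 0.282%, 0.481% and 0.410% of the neutrophil sum.

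Of 8 plasma cell genes, 5 were higher in mM-CSF against control by the size rule and none in sM-CSF. The 8 genes, none at 0, summed to 1438, 4447 and 1494 FPKM, and Jchain made up most of each sum. The regulator genes went different ways. Xbp1, at 163, 328 and 136 FPKM, was highest in mM-CSF and just short of the size rule. Prdm1, at 7.10, 6.14 and 5.25 FPKM, was highest in the control. Irf4, at 35.2, 28.8 and 35.2 FPKM, was level in control and sM-CSF and lowest in mM-CSF. In mM-CSF against control the length-adjusted differences were 0.86 for Xbp1, 0.58 for Prdm1 and 0.38 for Irf4. Ly6a was 11.3%, 12.0% and 11.7% of the plasma cell sum, and 30.6%, 59.7% and 20.3% of the sum of 15 T cell genes. The T cell genes summed to 531, 891 and 859 FPKM with Trac at 0 throughout, and 6 of 14 were higher and 1 lower in mM-CSF, and 6 of 14 higher in sM-CSF. The 10 NK cell genes, none at 0, summed to 356, 622 and 427 FPKM, with 1 of 10 higher in mM-CSF, Nkg7 at 76.8 and 240 FPKM, and none passing in sM-CSF. That 1 of 10 is near the share of all genes, 8.97%, and Nkg7 differed by 1.63 (length-adjusted 0.70).

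Among B cell markers, 3 of 11 were higher and 1 of 11 was lower in mM-CSF against control, and 3 of 11 were higher in sM-CSF. None was at 0, the sums were 1511, 2884 and 2773 FPKM, and 8 of 11 were above the control in both libraries to some degree, as Ly6d was. Cd79a, a B cell receptor chain gene that passed in both, was at 468, 1117 and 957.5 FPKM. Cr2, a complement receptor gene and the one that was lower in mM-CSF, was at 40.6, 16.7 and 56.7 FPKM. In mM-CSF against control Cd79a differed by 1.25 (length-adjusted 0.66) and Cr2 by -1.23 (length-adjusted -0.35). Ms4a1 and Cd22 differed from control by -0.04 and -0.28 in mM-CSF (length-adjusted -0.23 and 0.20). Ly6d was 15.6%, 20.2% and 15.4% of the B cell sum, and 82.6%, 157% and 124% of the sum of 12 plasmacytoid dendritic cell genes, which were at 286, 371 and 344 FPKM with 3 of 11 higher and 1 lower in mM-CSF and none of 12 passing in sM-CSF.

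Monocyte genes were measured beside Ly6c2. The 12 classical monocyte genes, none at 0, summed to 1467, 989 and 988 FPKM, with 0 of 11 higher and 1 lower in mM-CSF, 2 of 11 lower in sM-CSF, and 3 of 10 higher in mM-CSF against sM-CSF. The lower gene in mM-CSF was Lyz2, at 784, 205 and 282 FPKM, whose value is uncertain because it has a close copy. Without Lyz2, a setting added after the values were seen, the other 11 summed to 683, 784 and 706 FPKM, so the order of the sums rested on that gene. Chil3, F13a1, Plac8, Mgst1 and Hp were each above the control in mM-CSF, by 0.64 to 0.94 on the log2 scale, short of the size rule. Fn1, S100a4, Ccr2 and Msrb1 went the other way, with differences of -0.89, -0.62, -0.53 and -0.17. The median over the 11 at the minimum was 0.02 (length-adjusted -0.18). With the length adjustment Plac8 and Mgst1 turned to -0.33 and -0.22, and Fn1 to 0.26. Ly6c2 was 4.83% of the 12-gene sum in the control, 27.5% in mM-CSF and 10.9% in sM-CSF, and 10.4%, 34.7% and 15.2% of the sum without Lyz2. The 12 non-classical monocyte genes summed to 1421, 508 and 614 FPKM, with 9 of 12 lower in mM-CSF and 8 of 12 lower in sM-CSF, and Nr4a1, a factor these Ly6C-low monocytes need, was at 266, 21.7 and 94.9 FPKM. Ly6c2 was also 4.93%, 6.11% and 7.19% of the plasma cell sum, and 13.4%, 30.5% and 12.5% of the T cell sum.

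Endothelial markers, measured beside Ly6c1, were low. The 12 genes summed to 82.4, 66.4 and 78.4 FPKM, most of it Pecam1 at 57.5, 43.2 and 55.8 FPKM, a gene that blood cells also express; Cdh5, a defining junction gene, was at 0.79, 0.29 and 0.89 FPKM, and Cldn5 and Emcn were at 0 in the control and 0.08 in both other libraries. Among them 1 of 4 was lower in mM-CSF and none of 3 passed in sM-CSF. Stem and progenitor genes were measured beside Ly6a. The 12 genes summed to 134, 65.0 and 128 FPKM, with 2 of 6 at the minimum lower in mM-CSF and none passing in sM-CSF, while 7 of the 12, most of them low, had their highest level in mM-CSF. The genes that were lower were Kit, at 35.0, 6.02 and 34.7 FPKM, and Flt3, at 46.0, 6.25 and 42.0 FPKM.

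**Figure D4:**
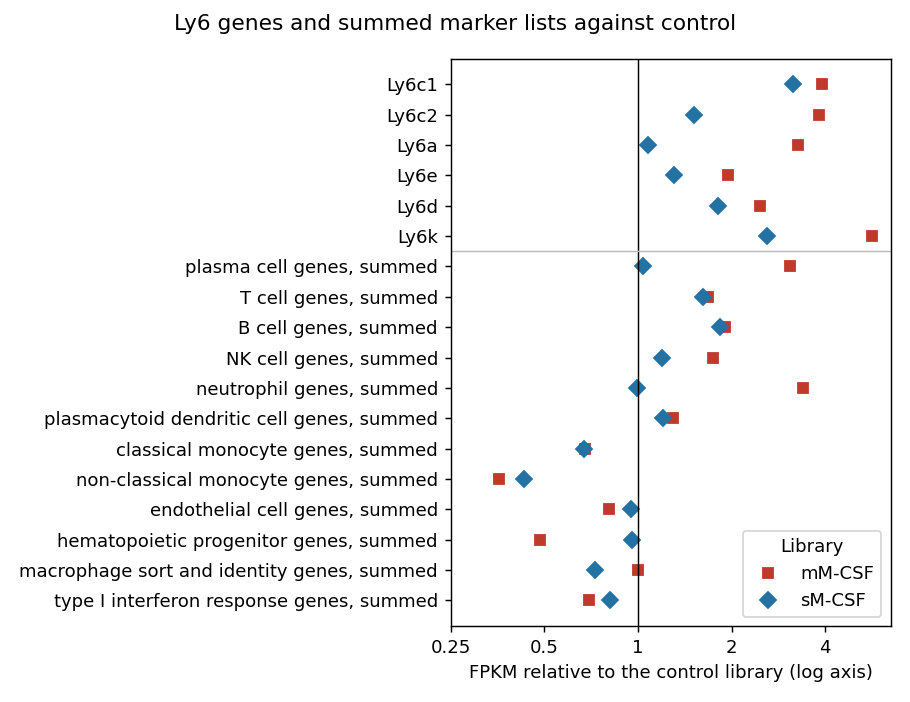
FPKM in mM-CSF and sM-CSF relative to the control library (log axis), for 6 Ly6 genes (above the grey line) and for the summed FPKM of 12 marker and response lists, 1 library per point and the control at 1. Ly6a is at 3.28 and 1.08 and the plasma cell sum at 3.09 and 1.04; The classical monocyte sum is at 0.674 and 0.673 with all 12 genes, and would be at 1.15 and 1.03 without Lyz2.

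Ly6e and Ly6a are known interferon-induced genes, and a list of 30 type I interferon response genes was therefore set beside them. The list summed to 948, 661 and 771 FPKM, the control being highest. In mM-CSF against control 10 of 28 were lower and 1 was higher (median -0.61); in sM-CSF 1 of 28 was lower, with a median of -0.17; and in mM-CSF against sM-CSF 6 of 27 were lower, with a median of -0.59. Ifitm3, an antiviral membrane protein gene, was at 326, 135 and 191 FPKM. The gene that was higher was Bst2, which encodes tetherin, at 48.3, 100.3 and 56.9 FPKM. Its difference in mM-CSF against control was 1.04 (length-adjusted 0.13). Ly6e and Ly6a were highest in the library in which the sum of this list was lowest. The part of interferon in their levels was not tested.

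The genes whose pair of differences from control was most like that of each member were found by Euclidean distance over these 3 libraries. The pool was 7456 genes at 10 FPKM or more in any library. It left out predicted gene models, Rik and LOC entries, ribosomal protein genes, microRNAs, small nucleolar RNAs and genes without a symbol. A gene of these kinds can therefore lie nearer than those named. For Ly6a the nearest in the pool were Jchain (distance 0.02), Derl3 (0.04) and Spcs1 (0.04), the first an immunoglobulin joining chain gene and the others genes of the secretory pathway. Jchain was at 1008, 3301 and 1072 FPKM in control, mM-CSF and sM-CSF. Like Ly6a it was highest in mM-CSF, with the other libraries nearly level. For Ly6c2 the nearest were S100a13 (0.04), Selenow (0.09) and Gstp3 (0.09), and for Ly6e Saysd1 (0.01), Snhg12 (0.01) and Serhl (0.02). With 3 libraries such nearness is a description of 2 differences that share the control.

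For Ly6d the nearest genes were Col14a1 (0.07), Cnbd2 (0.08) and Gimap1 (0.08), and Gimap1, a lymphocyte GTPase gene, was at 46.4, 121 and 87.4 FPKM. Around Ly6c1 and Ly6k the plane of differences was thinly filled by genes of this pool. Ly6c1 had Sap25 (0.09), Lat (0.29) and Rnu1a1 (0.29) nearest, and Ly6k had Trf (0.16), Nyx (0.25) and Cd3g (0.34); Lat and Cd3g are T cell receptor signalling genes. The counts of closer genes that follow are over the pool too. Among members, Ly6c1 and Ly6k lay 0.57 apart, with 8 other genes closer to Ly6c1 and 11 closer to Ly6k. Ly6c2 and Ly6a lay 0.53 apart, with 104 other genes closer to Ly6c2 and 209 closer to Ly6a, and Ly6e and Ly6d 0.58 apart, with 1868 closer to Ly6e and 423 closer to Ly6d.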

How the data were processed

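RNA of sorted spleen macrophages (1 ug in total per library) was sequenced on a BGIseq-500, per the labels' protocols. Each deposited table gave, per the file headers, an NCBI gene ID, a gene length, an expected count and an FPKM value made by the authors; the submitters' processing notes name Bowtie2 (2.2.5) and RSEM without a role. Genome build, annotation and strand setting are not given in the sources used here.

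Genes absent from a table were taken as 0, and IDs received symbols from a RefSeq table of GRCm38.p6 (54 of 17615 had none). The Ly6 members and the 14 gene lists (227 of 229 genes had an ID) were chosen with earlier results of these data known. With 1 library per group no test was possible. Differences of log2(FPKM + 1), the size rule (at least 1, and 5 FPKM in the higher library), and exact conditional Clopper-Pearson 95% intervals of count-share ratios on rounded expected counts were computed, and tested on simulated data. Genes named were drawn from all members, other superfamily genes at 1 FPKM or more, Csf1r, Adgre1 and Itgam, and the 3 most abundant genes per list. The 3 genes nearest to each member at 10 FPKM or more, within the pool described above, were also named. Cdh5, Cldn5, Emcn, Trac, Cyp11b1, Cyp11b2, Them6, Irf4, Prdm1, Cr2, Ms4a1, Cd22, Chil3, F13a1, Mgst1, Hp, Fn1, Ccr2, Msrb1, Pgap1 and Pign were named after their values were seen. Alternatives were other pseudocounts, minimums, scalings (TPM, median of ratios, upper quartile), a length adjustment, a 1.5-fold rule and summed Ly6C genes. Sequences came from GENCODE M21 and RefSeq tables, with Biopython 1.88, numpy 2.4.6, pandas 2.3.3 and scipy 1.17.1 in Python 3.11.15.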

Additional observations from a re-analysis of the deposited data

How the results depend on the processing

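With the length trend removed, the count of members higher moved from 5 to 2 in mM-CSF against control, from 2 to 1 in sM-CSF against control and from 3 to 0 in mM-CSF against sM-CSF, and genes higher and lower over all genes in the first moved from 878 and 1480 to 295 and 761. The share of all genes higher was then 3.01%, 0.496% and 1.99% in that order. In sM-CSF against control the members higher were 4 with the 1.5-fold rule and 1 with Ly6c1 and Ly6c2 summed, where 5 genes are counted in place of 6; the other causes were not tested. On the TPM scale 4 and 2 members were higher in mM-CSF against control and against sM-CSF, and with upper-quartile scaling 6 were higher in mM-CSF against control, Ly6e reaching 1.07. The 1.5-fold rule gave 2111 genes higher and 2682 lower in mM-CSF against control, 407 and 562 in sM-CSF against control, and 1440 and 2119 between them. No setting put a member lower by the size rule. Of 129 single-member values under the alternatives, 93 moved by less than their counting error, 36 moved by more, and 6 were below 0, among them Ly6g at -0.11 in sM-CSF against control with the length trend removed. Without Lyz2, left out after the values were seen, the classical monocyte sum relative to control was 1.15 in mM-CSF and 1.03 in sM-CSF in place of 0.674 and 0.673. No paired analysis was possible because each group has 1 library, so no library could be left out either. Ly6g, with at most 11.26 counts, is limited by depth.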

Other observations

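The genes that build and attach the GPI anchor, on which Ly6 proteins depend for their place at the surface, were mixed in direction. The order mM-CSF above sM-CSF above control was shown by 9 of the 27 genes in the tables, and 10 of 27 were highest in the control. Of 28 genes, 27 had an ID, and they summed to 417 FPKM (control), 509 (mM-CSF) and 440.4 (sM-CSF). In mM-CSF against control 1 of 23 at the minimum was higher and 2 were lower, with a median difference of -0.01. Over all genes 8.97% were higher and 15.1% lower, so these counts are not above the background. In sM-CSF none of 23 passed, with a median of 0.09, against 0.785% higher and 1.63% lower over all genes. The lower genes were Pgap1, at 8.17, 2.71 and 6.36 FPKM, and Pign, at 6.23, 2.28 and 4.89 FPKM. Both are long genes, and their differences in mM-CSF against control were -1.31 and -1.14 (length-adjusted -0.06 and -0.17). The gene that was higher was Dpm3, a short subunit gene of dolichol-phosphate mannose synthase, at 23.3, 67.0 and 29.5 FPKM. Its difference in mM-CSF against control was 1.49 (length-adjusted 0.42). Dpm2 was at 37.3, 70.8 and 43.6 FPKM and Pigt, a subunit gene of the transamidase that attaches the anchor, at 54.4, 73.3 and 57.9 FPKM.

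Itgam, which encodes the integrin chain CD11b carried by most Ly6C-positive monocytes, stood at 41.3 FPKM (control), 5.76 (mM-CSF) and 19.96 (sM-CSF). It was thus lowest in the library in which Ly6c2 was highest. Its share of counts was 7.12-fold lower in mM-CSF than in control (6.21 to 8.19), a log2 difference of -2.65 (length-adjusted -1.99). That of Ly6c2 was 1.92 (length-adjusted 1.02).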
